A study of Mus musculus with 12 samples.

Results

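The interferon-inducible p200 genes, also called the PYHIN family, lie in a cluster on mouse chromosome 1. They were taken from the gene count table of tumour-infiltrating lymphocytes by symbol: Ifi203, Ifi204, Ifi206, Ifi207, Ifi208, Ifi209, Ifi213, Ifi214, Mndal and Aim2, which makes 10 of the 54232 genes in the table. All 10 passed the filter on low counts that left 13279 genes for testing. In GRCm38 the 10 genes span positions 173350879 to 173942672 of chromosome 1, with Aim2 at one end and Ifi203 at the other. The cells came from subcutaneous MC38 tumours, a mouse colon adenocarcinoma line injected into each flank and isolated after 8 to 10 days. For each library 300 cells were sorted, either NK cells (CD45+ CD3ε- NK1.1+) or CD8 T cells (CD45+ CD3ε+ CD8a+), and their RNA was sequenced with Smart-seq2. The hosts were WT C57BL/6N mice, mice without the Janus kinase TYK2 in any cell (B6N.129P2-Tyk2tm1Biat, labelled TYK2KO, here KO) and mice whose TYK2 carries the kinase-inactivating K923E exchange (labelled TYK2KE, here KE). They were sex- and age-matched, 6 to 12 weeks old, and received no treatment besides the tumour. Each combination of cell type and genotype has 2 libraries, which gives 6 groups and 12 libraries. The labels do not say whether the replicates came from separate mice, so p-values measure the spread between these libraries. Because both mutations are present in every cell of the host, the comparisons do not separate a loss of TYK2 in the sorted cells from one in the rest of the animal.

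PYHIN proteins join a pyrin domain, which binds other pyrin domains, to HIN domains, which bind double-stranded DNA, although some members lack one of the parts. The best known are AIM2, which senses DNA in the cytosol and assembles the inflammasome with the adaptor ASC (gene Pycard), and p204, the product of Ifi204, a relative of human IFI16 that acts in DNA sensing through STING. Type I interferon induces many of these genes: TYK2 and JAK1 at the interferon receptor activate a transcription factor complex that binds the interferon-stimulated response element (ISRE) in promoters.

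The promoters are shown because Ifi213 and Ifi208, identical over the 60 bases given below, had unlike values in these libraries. That difference was not tested. RefSeq promoter windows on GRCm38.p6, from 250 bases before to 50 after each gene's start, were at hand for 9 of the 10 genes, in 11 windows. The ISRE core was searched as GAAANNGAAA on both strands. It was present in 3.44% of all 32851 windows, in 1079 of the 27025 genes with a window, and in 7 of the 9 p200 genes. In 6 of them it stood within the same longer word, GGAAATCGAAAG, which occurred in 6 windows of the whole genome set, all of them of p200 genes. This word was picked after reading the promoters. The GAS core TTCNNNGAA, the interferon gamma-activated site, which occurred in 8.3% of windows, was not found in a window of these 9 genes. Below, 60 bases upstream of the start are given on the gene's own strand, with the word or its closest counterpart in capitals.
Ifi206, chr1:173491328-173491387, minus strand: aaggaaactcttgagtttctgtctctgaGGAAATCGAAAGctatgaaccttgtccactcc
Ifi213, chr1:173599315-173599374, minus strand: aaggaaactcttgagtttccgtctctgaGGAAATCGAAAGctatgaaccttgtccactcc
Ifi208, chr1:173673578-173673637, plus strand: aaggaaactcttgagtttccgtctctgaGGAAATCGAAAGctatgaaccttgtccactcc
Ifi214, chr1:173536006-173536065, minus strand: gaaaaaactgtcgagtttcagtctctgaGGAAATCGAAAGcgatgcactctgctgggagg
Ifi209, chr1:173630751-173630810, plus strand: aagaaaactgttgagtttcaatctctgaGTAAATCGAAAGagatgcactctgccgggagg
Mndal, chr1:173880193-173880252, minus strand: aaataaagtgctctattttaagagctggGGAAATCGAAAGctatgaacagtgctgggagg
Ifi207, chr1:173741820-173741879, minus strand: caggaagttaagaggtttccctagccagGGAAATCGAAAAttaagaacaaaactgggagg

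Ifi213 and Ifi208 were identical over these 60 bases, and Ifi206 matched each of them at 59. Ifi214 and Ifi209 matched at 53 of 60 bases. The Ifi203 stretch, from the window that starts at its downstream start site, was identical to that of Mndal. Counting from 1 at the 5′ end of the word, Ifi209 differs by G2T, which removes the ISRE core, and Ifi207 by G12A, which leaves it. Aim2 had no ISRE core in its window. A match is only a run of letters, and no binding was measured.

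Total counts lay between 10378761 and 14732882 per library, so that 3 counts, the most that an observed 0 allows, stand for 0.219 to 0.276 normalized CPM, the count scaled to the effective library size, counting error only. The sort markers followed the gates: Klrb1c, which encodes NK1.1, lay at 1064 to 2244 CPM in the NK and at 1.42 to 5.09 CPM in the CD8 libraries, and Cd8a at 2.68 to 4.51 against 2846 to 4114 CPM. Within the NK libraries the summed level of 5 NK genes was lower in WT, at 3937 and 4698 CPM, than in KO, at 6778 and 5166, and in KE, at 7087 and 6284 CPM. The sum of 5 CD8 T cell genes was also lower in NK WT, at 50.9 and 59.0 CPM, than in the NK mutants, at 71.2 to 202 CPM. The part of these shifts in the NK comparisons was not tested. Tyk2 does not separate the genotypes, with 55.8 to 104 CPM in the KO against 48.7 to 86.8 CPM in the WT libraries, and gene counts do not show which exons the reads came from, so the KO label was not checked. The NK WT libraries also held macrophage RNA. A list of 15 macrophage and monocyte genes summed to 15850 and 17984 CPM there, to 954 and 8633 in NK KO, to 1863 and 1975 in NK KE and to 975 to 5496 in the CD8 libraries. Without Ly6c2, Ccr2 and Itgam, which lymphocytes express too and which were set aside after their values were seen, the sum was 14021 and 16466 CPM in NK WT, 24.2 and 7140 in NK KO, 55.7 and 397 in NK KE, and 53.1 to 601 in CD8. Summed markers of neutrophils reached 6.90 CPM, of B cells 0.149, of tumour epithelium 50.3, of stroma 264 and of dendritic cells 1642 CPM. The dendritic sum was 881 and 1642 CPM in NK WT, 1405 in NK KO replicate 1 and 36.6 to 134 CPM in the other libraries. In NK WT and NK KO replicate 1, 5 or 6 of the 7 dendritic genes held 3 counts or fewer. In bulk RNA of sorted cells, fewer cells of a type and less RNA per cell cannot be told apart.

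In WT cells the most abundant p200 transcripts were those of Ifi209 and Mndal. Per kilobase of exon, the NK WT level was 128 ± 36.8 CPM per kb for Ifi209 and 124 ± 11.1 for Mndal (SD, n = 2), and the libraries of these neighbours overlapped. They were followed by Ifi204 at 77.8 ± 17.6 and Ifi206 at 75.7 ± 12.1 CPM per kb, whose libraries also overlapped, then by Ifi213 at 47.1 ± 0.392 and Ifi203 at 38.8 ± 5.57. Ifi207 at 20.1 ± 3.97 and Ifi214 at 18.5 ± 7.44 overlapped again, and Aim2 at 12.5 ± 0.0268 and Ifi208 at 5.87 ± 2.84 CPM per kb came last. In CD8 WT the order was Mndal at 192 ± 41.3, Ifi209 at 142 ± 33.4 and Ifi206 at 117 ± 19.8 CPM per kb, with overlap between neighbours, then Ifi203 at 91.1 ± 8.85 and Ifi213 at 84.0 ± 1.64, which overlapped. Ifi214 stood at 47.9 ± 2.02, and Aim2 at 17.7 ± 6.73, Ifi208 at 14.6 ± 9.82, Ifi204 at 11.5 ± 16.2 and Ifi207 at 6.30 ± 0.541 CPM per kb overlapped neighbour by neighbour. The largest difference in rank between the cell types was that of Ifi204, a gene known from macrophages. Only reads with a single best place were counted by the authors, and 0.932% (Aim2) to 35.2% (Ifi214) of the 50-base words in a member's transcripts also occur in another gene, so similar copies are undercounted. Taking only words of no other gene as length left the order unchanged except for swaps of Ifi207 with Ifi214 in NK WT and of Aim2 with Ifi208 in CD8 WT.

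Summed over the 10 genes, the family stood at 549 ± 67.7 CPM per kb in NK WT, 245 ± 27.8 in NK KO and 306 ± 83.1 in NK KE (SD, n = 2). The sums were 724 ± 35.3 in CD8 WT, 255 ± 13.0 in CD8 KO and 239 ± 77.4 CPM per kb in CD8 KE. Each of the 8 mutant libraries summed to less than each of the 4 WT libraries, with 365 CPM per kb as the highest mutant and 501 as the lowest WT value. Ifi204 took 13.0% and 15.1% of the NK WT sums and 0 to 2.01% of the NK mutant sums, and macrophage transcripts were also higher in NK WT, as given above. Without Ifi204, a sum added after its values were seen, NK WT stood at 507 and 436, NK KO at 225 and 265 and NK KE at 359 and 243 CPM per kb, so the NK groups still did not overlap with WT. The part of macrophage RNA in the sums of the other 9 genes was not tested. Mndal took 29.7% to 37.7% of the sum in the mutant and 19.5% to 29.5% in the WT libraries.

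**Figure D1:**
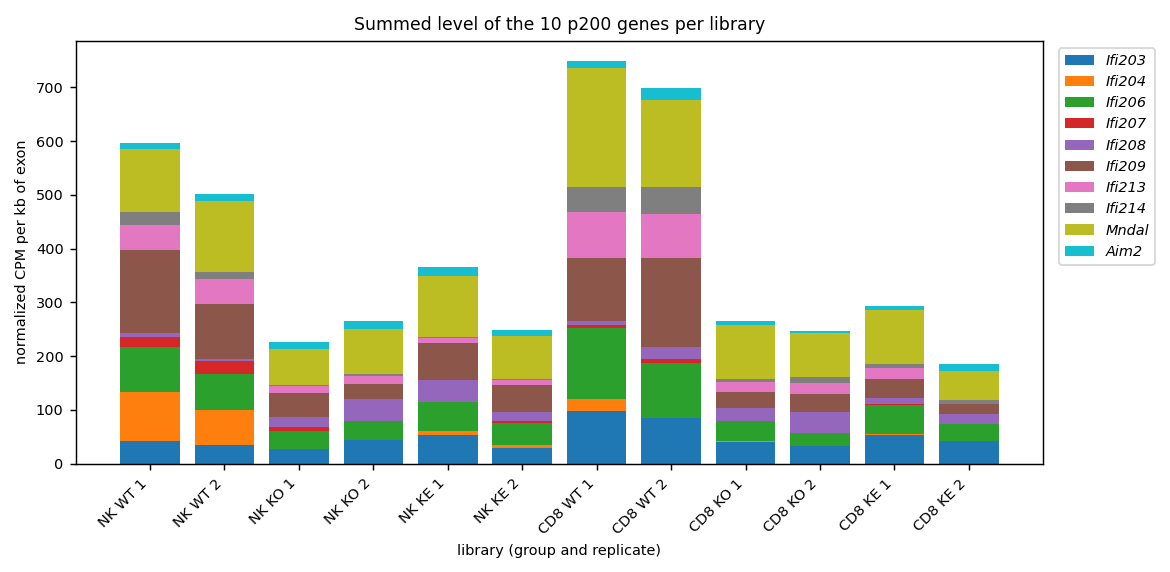
Stacked bars give the normalized CPM per kb of exon of the 10 p200 genes in each of the 12 libraries, 1 colour per gene. The 4 WT bars reach 501 to 749 CPM per kb and the 8 mutant bars 184 to 365, and the Ifi204 segment is wide in the 2 NK WT bars.

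With both mutants set against WT over both cell types, 3 of the 10 genes were differentially expressed (edgeR, FDR below 0.05 and at least 2-fold), and all of them fell: Ifi209, Ifi206 and Ifi214. The same rule called 0.377% of the 13279 genes lower. At an unadjusted p below 0.05, 8 members were lower, against 6.91% of all genes, and 1, Ifi208, was higher, against 3.03%. For 6 members (Ifi206, Ifi207, Ifi209, Ifi213, Ifi214 and Mndal) every mutant library lay below every WT library of its own cell type in both cell types, which was so for 1.57% of all genes. The opposite order held for 0 members and 0.971% of all genes. The median log2 fold change of the 10 genes was -1.58, beside -0.04 over all genes tested. DESeq2, which called 3.44% of all genes in either direction, called 6 members in this comparison, and edgeR without the low-count filter, which called 1.7% of 23707 genes, also 6.

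Within CD8 T cells, both mutants against WT gave 1 called gene, Ifi209, which fell, where the rule called 0.173% of all genes lower. Here 8 members were lower and 0 higher at an unadjusted p below 0.05 (4.38% and 2.37% of all genes). DESeq2 called 7 members (2.46%). For 8 members, all but Ifi204 and Ifi208, every mutant library lay below both WT libraries (7.52% of all genes), and for 0 above them (6.8%). In NK cells edgeR called 0 members for both mutants against WT (0.0301% of all genes were called lower), 5 were lower and 1 higher at an unadjusted p below 0.05 (6.88% and 2.13%), and DESeq2 called 4, Ifi208 among them as higher (3.44% of all genes in either direction). For 7 members both NK WT libraries lay above all 4 mutant libraries, against 10.8% of all genes, and for Ifi208 below them, against 7.06%. The single mutants gave no called member by edgeR in either cell type, where the rule called 0 genes in NK KO and NK KE, 0.0301% lower and 0.0226% higher in CD8 KO, and 0.0452% lower and 0.0377% higher in CD8 KE. In NK KO against WT the counts at an unadjusted p below 0.05 were 4 lower and 1 higher (4% and 2.3% of all genes), with 3 calls by DESeq2 (2.85% of all genes). In NK KE they were 3 lower and 1 higher (3.97% and 2.06%), with 1 call by DESeq2 (2.91%). The CD8 KO libraries gave 8 lower and 0 higher (2.55% and 2.24%), with 4 calls by DESeq2 (1.76%), and CD8 KE 7 lower and 0 higher (3.01% and 2.55%), with 6 (2.47%). The median log2 fold changes of the 10 genes against WT were -1.44 (KO) and -0.88 (KE) for NK cells and -2.04 (KO) and -1.90 (KE) for CD8 T cells, beside medians between -0.01 and 0 over all genes.

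**Figure D2:**
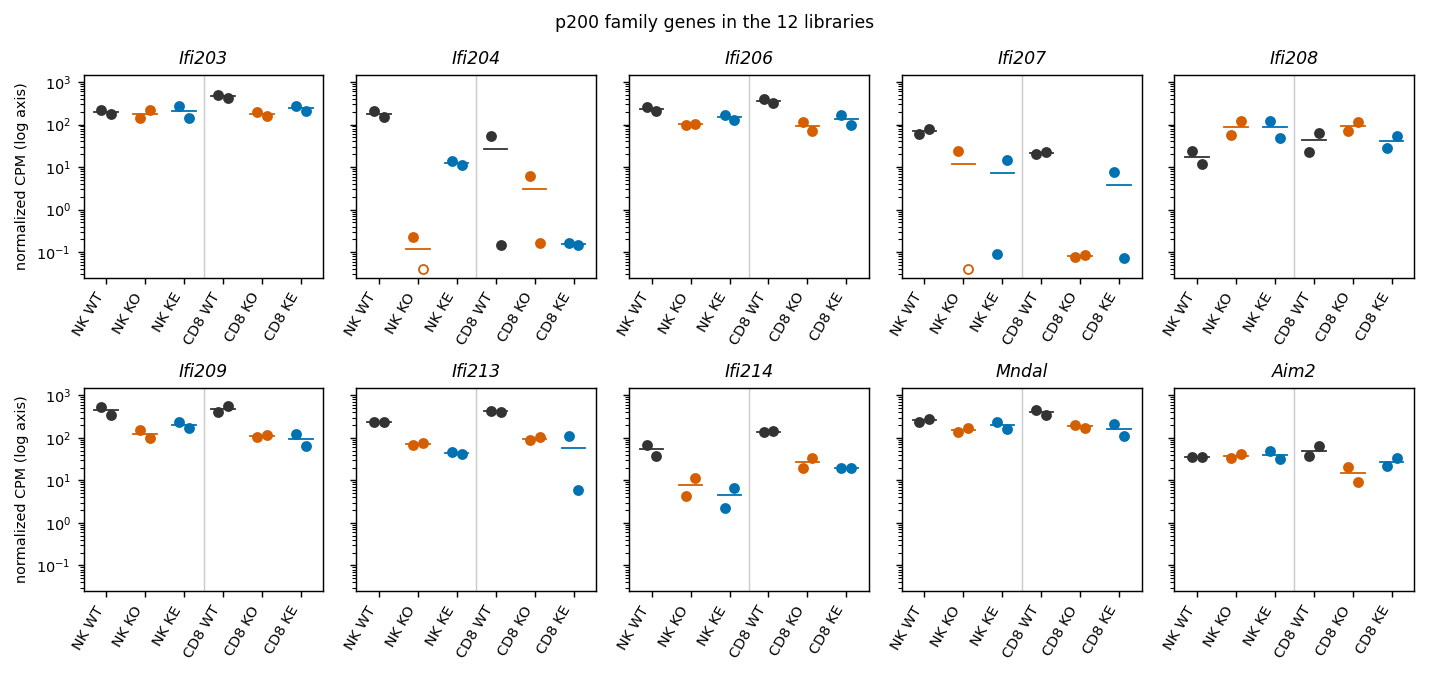
Points give normalized CPM on a log axis for each p200 gene in the 2 libraries of each group, short lines the group mean, and open points libraries with 0 counts. Black points (WT) stand above the orange (KO) and blue (KE) points in most panels, the Ifi208 panel shows the opposite in NK cells, and Ifi204 and Ifi207 drop to the floor in several mutant libraries.

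Ifi209, listed also as Pyhin1, gave the clearest difference of the family. It stood at 531 and 352 CPM in the NK WT libraries, 156 and 97.1 in NK KO, and 235 and 174 in NK KE. In CD8 it stood at 407 and 570 CPM in WT libraries, 104 and 117 in KO libraries and 122 and 64.1 in KE libraries. All 8 mutant libraries lay below all 4 WT libraries. Ifi209 fell by 1.86 ± 0.22 on the log2 scale over both cell types (SE, edgeR FDR = 0.0075, n = 4 WT and 8 mutant libraries) and by 2.27 ± 0.32 in CD8 (FDR = 0.026). Its call over both cell types was lost without NK WT replicate 1, and that in CD8 when any WT or KO library of the CD8 cells or either NK WT library was left out, or the CD8 libraries were fitted alone. The fit of the CD8 libraries alone called 0 of all 12669 genes tested in CD8 mutants against WT. In NK cells the log2 fold change of Ifi209 was -1.46 ± 0.32 with an FDR of 0.165.

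Ifi214, the nearest relative of Ifi209 in the genome, shares 993 of its 2839 50-base words with it, so that some reads of either gene were dropped at counting. Its level was 68.6 and 38.2 CPM in NK WT against 4.34 and 11.5 in NK KO and 2.30 and 6.69 in NK KE. The CD8 libraries held 134 and 143 CPM in WT libraries, 19.7 and 33.6 in KO libraries and 19.3 and 19.2 in KE libraries. Within each cell type the mutant libraries did not overlap with WT. Ifi214 fell by 2.89 ± 0.44 on the log2 scale over both cell types (edgeR FDR = 0.025), and its separate values were -3.16 ± 0.63 in NK (FDR = 0.129) and -2.61 ± 0.62 in CD8 (FDR = 0.266). Its call was lost without NK WT replicate 1, NK KE replicate 1 or any single CD8 library.

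Ifi206 was lower in mutants by less, and with a narrower spread. It held 257 and 205 CPM in NK WT, 99.9 and 105 in NK KO, and 168 and 127 in NK KE. In CD8 it held 400.1 and 315 CPM in WT libraries, 112 and 72.4 in KO libraries and 169 and 97.9 in KE libraries. Every mutant library was below every WT library. Ifi206 fell by 1.30 ± 0.21 on the log2 scale over both cell types (edgeR FDR = 0.029), with -1.69 ± 0.29 in CD8 (FDR = 0.063) and -0.91 ± 0.29 in NK (FDR = 0.377). The call over both cell types was lost without either NK WT, NK KE or CD8 WT library, without NK KO replicate 2 and without CD8 KO replicate 2.

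Ifi213 and Ifi208, listed also as Pydc4 and Pydc3, share 951 of the 4980 50-base words of Ifi213 and have the same upstream sequence shown above. In NK KO, NK KE and CD8 KO against WT the fitted value of Ifi213 was negative and that of Ifi208 positive, in CD8 KE both were negative, and the difference between the genes was not tested. Ifi213 stood at 236 and 233 CPM in NK WT, 68.0 and 76.1 in NK KO, and 46.3 and 40.9 in NK KE. In CD8 it stood at 424 and 412 CPM in WT libraries, 87.8 and 103 in KO libraries and 108 and 6.05 in KE libraries. WT and mutant libraries did not overlap, and CD8 KE replicate 2 lay far below the other mutant libraries. Its log2 fold change over both cell types was -2.29 ± 0.49 (edgeR FDR = 0.112, not called), with -2.07 ± 0.70 in NK and -2.50 ± 0.70 in CD8. Over the other settings run it ranged from -3.09 to -2.04 over both cell types, from -2.11 to -2.02 in NK and from -4.12 to -2.04 in CD8. When either CD8 KE library was left out, Ifi213 was called over both cell types, in the NK mutants, in the CD8 mutants and in CD8 KO against WT.

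Ifi208 was the member whose values were higher in mutants. It held 23.6 and 11.6 CPM in NK WT, 55.9 and 122 in NK KO, and 124 and 49.0 in NK KE. In CD8 it held 23.0 and 64.6 CPM in WT libraries, 71.2 and 117 in KO libraries and 28.6 and 54.1 in KE libraries. The 4 mutant NK libraries lay above both WT libraries, the CD8 KO libraries lay above CD8 WT, and the CD8 KE libraries fell within the WT range. In NK the log2 fold change was 2.34 ± 0.77 for KO and 2.30 ± 0.76 for KE (unadjusted p = 0.012 and 0.013 in edgeR's test, FDR = 0.71 and 0.67), and for both mutants over both cell types 1.42 ± 0.48 (FDR = 0.334). None of these passed the threshold in edgeR, while DESeq2 called Ifi208 in NK cells for the average of both mutants (adjusted p = 0.025), though for neither alone (0.086 for KO and 0.095 for KE). As a share of the family sum, Ifi208 made up 0.77% and 1.32% in NK WT and 6.62% to 15.5% in the NK mutants. The family sum, the base of these shares, was itself lower in the mutants.

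**Figure D3:**
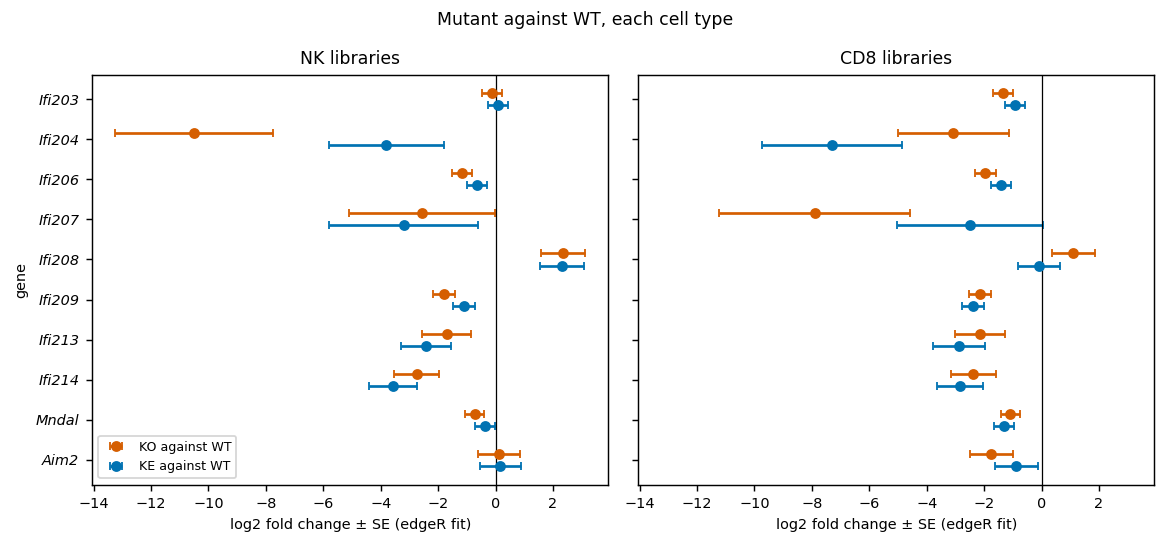
Points give the fitted log2 fold change of KO (orange) and KE (blue) against WT for each p200 gene in NK (left) and CD8 (right) libraries, and bars the SE. Ifi209 lies between -1.11 and -2.39 in all 4 comparisons, Ifi208 at 2.34 and 2.30 in NK, and the bars of Ifi204 and Ifi207 are the longest.

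Ifi204, the p204 gene, had its highest values in NK WT, at 2481 and 1960 counts or 207 and 150.2 CPM. NK KO held 3 and 0 counts, and NK KE 152 and 154 counts, which is 14.0 and 11.4 CPM. Among the CD8 libraries WT had 704 and 2 counts, KO had 79 and 2, and KE had 2 and 2. In NK cells all mutant libraries lay far below WT, whereas in CD8 1 WT library alone carries the difference. The NK WT mean was 1577-fold the NK KO level, with both KO libraries pooled and an exact Poisson interval of 539.8 to 7649 from their 3 counts, which covers counting error only. The fitted log2 fold change over both cell types was -6.17 ± 1.20 (edgeR FDR = 0.068, not called), in NK -7.15 ± 1.76 (FDR = 0.240) and in CD8 -5.19 ± 1.64 (FDR = 0.601). Leaving out CD8 WT replicate 1 turned the CD8 value to 2.20 and moved that over both cell types to -2.47, not called, while without CD8 WT replicate 2 Ifi204 was called over both cell types. Fitted values of this size depend on the small count that the fit adds and are not bounds.

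Summed macrophage transcripts, like Ifi204, were higher in both NK WT libraries than in the NK mutant libraries. Among the mutants the 2 did not keep the same order. The sum of 12 macrophage genes was 7140 and 24.2 CPM in NK KO, with Ifi204 at 0.23 and 0 CPM. In NK KE it was 55.7 and 397 CPM, with Ifi204 at 14.0 and 11.4 CPM. Of the 15 macrophage and monocyte genes, 15 had a negative fitted log2 fold change in NK mutants against WT, 12 of them with an unadjusted p below 0.05 (6.88% of all genes were lower by this rule), and 0 were called by edgeR (0.0301%). The median was -4.64, beside -0.05 over all genes. Over both cell types 1 was called, Ly6c2, where the rule called 0.377% of all genes lower. Ly6c2, which T cells also express, fell by 1.35 ± 0.17 (edgeR FDR = 0.0088). The genes named next were chosen after their values were seen. Csf1r, the receptor for macrophage colony-stimulating factor, held 292 and 300.2 CPM in NK WT, 0.16 and 0.22 in NK KO, and 0.18 and 27.3 in NK KE. NK KO replicate 1 kept more of these transcripts than the other NK mutant libraries, yet 13 of the 15 genes lay below both NK WT libraries there and 2, Lyz2 and Ccr2, above them. Lyz2, the macrophage lysozyme, stood at 3347 CPM against 2500 and 2086 in NK WT, whereas C1qb, a complement subunit, stood at 942 against 2425 and 2280 and Apoe, an apolipoprotein, at 1811 against 7105 and 5410 CPM. Ifi204 had 3 counts in that library. In the CD8 WT libraries the 12 macrophage genes summed to 234 and 217 CPM, close to each other, and Ifi204 had 704 and 2 counts. The part of macrophage RNA in the Ifi204 values was not tested.

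**Figure D4:**
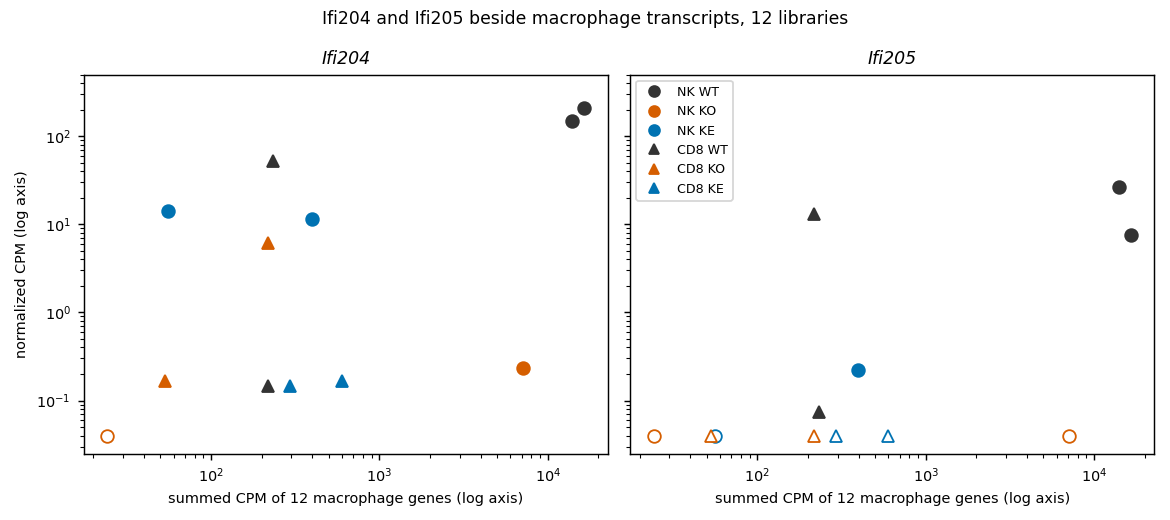
Points give, for each of the 12 libraries, normalized CPM of Ifi204 (left) and Ifi205 (right) on a log axis against the summed CPM of 12 macrophage genes on a log axis, with circles for NK, triangles for CD8 and open points for 0 counts. The 2 NK WT libraries stand at the upper right, and NK KO replicate 1 stands at the lower right with a macrophage sum of 7140 CPM.

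Ifi207 was a low and uneven member. It held 59.2 and 78.5 CPM in NK WT, 23.3 and 0 in NK KO, and 0.092 and 14.8 in NK KE. In CD8 it held 20.3 and 22.9 CPM in WT, 1 count in each KO library, and 7.60 and 0.074 CPM in KE. No mutant library reached a WT library of its cell type, and in NK KO, NK KE and CD8 KE 1 library was at or near 0 while the other held 7.60 to 23.3 CPM. The CD8 WT mean was 269-fold the CD8 KO level, pooled likewise, with a counting interval of 74.5 to 2221. The log2 fold change over both cell types was -4.04 ± 1.48 (edgeR FDR = 0.377). The macrophage sums given above differ between the NK groups here as well, and their part in the Ifi207 values was not tested.

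Mndal and Ifi203 are large contributors to the family and differed less. Mndal, which encodes a relative of the myeloid nuclear differentiation antigen, ranged from 240.2 to 273 CPM in NK WT and from 138 to 235 in the NK mutants, and from 336 to 457 in CD8 WT and 113 to 208 in the CD8 mutants. Its libraries did not overlap within either cell type. The log2 fold change was -0.55 ± 0.29 in NK (FDR = 0.628) and -1.20 ± 0.28 in CD8 (edgeR FDR = 0.254). Ifi203 ranged from 176 to 216 CPM in NK WT and from 140 to 271 in the NK mutants, which overlapped, and from 428 to 491 in CD8 WT and 163 to 273 in the CD8 mutants, which did not. Its log2 fold change was -0.01 ± 0.30 in NK, with a 95% interval of -0.68 to 0.65, and -1.14 ± 0.29 in CD8 (FDR = 0.311). The exons of both genes overlap by 37 bases.

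Aim2, the inflammasome sensor, showed no separation in NK cells. It held 35.3 and 35.4 CPM in NK WT and 31.5 to 48.0 in the NK mutants, with a log2 fold change of 0.14 ± 0.63 and a 95% interval of -1.27 to 1.55. In CD8 it held 36.6 and 63.7 CPM in WT against 20.3 and 9.28 in KO and 21.6 and 33.0 in KE, all below WT. The log2 fold change in CD8 was -1.32 ± 0.61 (edgeR FDR = 0.724).

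The loss of the protein and the loss of its kinase activity were compared directly. In NK KO against KE, edgeR called 0 members (0 of all genes were called), 1 member, Ifi204, was lower at an unadjusted p below 0.05 (2.06% of all genes) and 0 were higher (1.75%), and DESeq2 called 1 (1.54%). Ifi204 differed by -6.67 ± 2.40 on the log2 scale, with counts of 3 and 0 in KO and 152 and 154 in KE, unadjusted p = 0.019 in edgeR's test and FDR = 1. In CD8 KO against KE no member reached an unadjusted p below 0.05 (1.69% of all genes lower and 1.94% higher), and edgeR and DESeq2 called 0 (DESeq2 called 1.18% of all genes). The intervals leave room for differences. For Ifi209 the log2 difference of KO minus KE was -0.69 in NK (95% interval -1.53 to 0.15) and 0.24 in CD8 (-0.60 to 1.08), and for Ifi208 it was 0.04 in NK (-1.57 to 1.66) and 1.19 in CD8 (-0.45 to 2.83). Without CD8 KE replicate 1, the KO minus KE value of Ifi213 in CD8 went from 0.75 to 3.98 and was called.

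The mutant effect was also compared between NK and CD8 cells with an interaction term. EdgeR called 0 members (0.0151% of all genes were called higher and 0 lower), and so did DESeq2, which called 2.01% of all genes in either direction. At an unadjusted p below 0.05, 1 member, Ifi203, had a higher value in NK (2.42% of all genes), with a difference of 1.13 ± 0.43 on the log2 scale (FDR = 0.857), and 0 had a lower one (3.28%). For Ifi208 the difference was 1.81 ± 0.90, with a 95% interval of -0.19 to 3.81, and for Ifi209 0.81 ± 0.46, with an interval of -0.22 to 1.84.

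Between the WT cells, NK against CD8, edgeR called 0 members (0.437% of all genes were called lower in NK and 0.339% higher), 1 was lower at an unadjusted p below 0.05 (4.89%) and 0 were higher (5.36%), and DESeq2 called 1 (6.23%). The gene was Ifi203 in each case, with 196 CPM in NK against 459.8 CPM in CD8 and a log2 fold change of -1.23 ± 0.35 (edgeR FDR = 0.196). Ifi204 and Ifi207 were the members with higher values in both NK WT libraries, with means 6.77-fold and 3.19-fold those of CD8 WT, and neither was called. The Ifi204 mean of CD8 WT rests on 1 library, with 704 counts against 2 in the other, and its log2 fold change of 2.76 became 10.17 without CD8 WT replicate 1 and 1.78 without replicate 2. The macrophage sums, far higher in NK WT than in CD8 WT, move with both genes here, and their part was not tested.

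Of the other genes of the cluster, Ifi205, Ifi211, Ifi202b and the pseudogene Ifi203-ps were in the table under these names. Ifi205 had 90 and 346 counts in NK WT, 0 and 0 in NK KO, 0 and 3 in NK KE, 1 and 178 in CD8 WT, and 0 in all 4 CD8 mutant libraries. The NK WT mean, from 7.52 and 26.5 CPM, was at least 75.0-fold higher than the NK KO level, against a floor of 3 counts in each library. It rests mostly on replicate 2. The CD8 WT level, carried by 1 library, was at least 27.2-fold higher than that of CD8 KO and 27.7-fold that of CD8 KE. Ifi211, listed also as Mnda, held 49.5 and 35.5 CPM in NK WT and 5.57 to 10.5 in the NK mutants, and 31.6 and 22.2 in CD8 WT and 0 to 3.00 in the CD8 mutants, without overlap. Neither gene was called, with log2 fold changes over both cell types of -9.16 (edgeR FDR = 0.185) for Ifi205 and -3.42 (FDR = 0.375) for Ifi211. Ifi211 shares 72.8% of its 50-base words with other genes. Ifi202b had 0 counts in all 12 libraries, and Ifi203-ps reached 3.26 CPM in NK WT. As given above, macrophage transcripts moved with the NK groups, and their part in the Ifi205 and Ifi211 values was not tested.

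Genes that act beside p200 proteins were taken from 3 lists. Of 10 genes of the AIM2 inflammasome and its downstream steps, 0 were called by edgeR for both mutants over both cell types, 3 were lower and 0 higher at an unadjusted p below 0.05 (6.91% and 3.03% of all genes), and the median log2 fold change was -0.82, beside -0.04 over all genes. The median was -2.11 in the NK mutants, beside -0.05 over all genes. There 5 genes were lower and 0 higher at that p (6.88% and 2.13% of all genes). In the CD8 mutants the median was -0.21, beside 0 over all genes, with 1 lower and 0 higher (4.38% and 2.37%). Il1b, the cytokine cleaved by caspase-1, and Nlrp3, another inflammasome sensor, were both named after their values were seen. They averaged 210.4 ± 146 and 12.7 ± 13.6 CPM in NK WT (SD, n = 2) against 0.037 ± 0.052 and 0 CPM in CD8 WT. The macrophage sums move with the NK values of this list, and their part was not tested. The 4 most abundant gave log2 fold changes of 0.12 ± 0.20 for the adaptor Pycard, -0.44 ± 0.38 for the protease Casp1, -0.43 ± 0.24 for Casp8 and -1.25 ± 0.55 for the pore former Gsdmd. Casp4, the receptor of the non-canonical inflammasome, named after its value was seen, gave -2.64 ± 0.51 (edgeR FDR = 0.063). Of 10 genes of cytosolic DNA sensing through STING, 3 fell and 0 rose, where 0.377% of all genes were called lower and 0.0452% higher, and the median was -0.37. They were Samhd1, a dNTP hydrolase (by 1.56 ± 0.17 on the log2 scale, edgeR FDR = 0.0042), Zbp1, a sensor of Z-form nucleic acids (by 1.70 ± 0.21, FDR = 0.0075), and Trex1, a DNA exonuclease (by 1.62 ± 0.28, FDR = 0.036). Tmem173, which encodes STING and was likewise added, gave -0.06 ± 0.24. Of 15 genes of interferon signalling, Irf7 (by 2.45 ± 0.38, FDR = 0.025) and Usp18 (by 4.71 ± 0.76, FDR = 0.031) fell and 0 rose, against the same shares of all genes and with a median of -0.26. Irf8 was called only between the WT groups, higher in NK, where 0.339% of all genes were called higher. Zbp1 and Samhd1 also fell in CD8 mutants alone (both with an edgeR FDR of 0.026 to 0.031), where 0.173% of all genes were called lower. The macrophage sums given above differ between the NK groups here as well. Their part in the values of the STING and interferon signalling lists was not tested.

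The genes whose profile over the 12 libraries was most like the mean centred log2 CPM of the 10 members were Dnase2a (Pearson r = 0.943), Trim30a (0.930), Rapsn (0.929), Zfp661 (0.925) and Mgarp (0.924). The libraries share genotype and cell type groups, so the correlations describe these samples and carry no test. Dnase2a, the lysosomal DNase, held 52.3 and 37.5 CPM in NK WT, 22.4 and 11.1 in CD8 WT, and 0 to 1.34 CPM in the 8 mutant libraries. Dnase2a was not called by edgeR over both cell types. Trim30a, an interferon-inducible TRIM protein, fell in both cell types together with a log2 fold change of -2.04 (edgeR FDR = 0.0039).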

How the data were processed

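Per the labels and the study's methods, 50-base single-end reads were trimmed with Trimmomatic, aligned with STAR to mm10 (GRCm38), and reads with a single alignment in exons of the Ensembl GENCODE Basic set were counted per gene with summarizeOverlaps. The authors deposited these raw counts, not normalized or pooled. Reads carry no molecular identifiers, so floors cover counting error only.

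Tests used edgeR 4.0.16 under R 4.3.3 (TMM, robust quasi-likelihood F-test, two-sided, a mean per group over 12 libraries), on the 13279 genes whose normalized counts averaged 10 or more. P-values were adjusted by Benjamini-Hochberg over all genes tested (FDR). Calls needed an FDR below 0.05 and a log2 fold change of 1 or more in size. The SE is the absolute log2 fold change over the square root of F, and 95% intervals use the test's degrees of freedom. DESeq2 1.42.0 and other settings served as alternatives. Exon lengths and 50-base words came from GENCODE transcripts on GRCm38, and promoters from RefSeq.

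Each p200 gene is named whatever its value. From the lists, called genes or, without any, the 4 of highest level are named, with additions marked, and likeness gives the 5 non-p200 genes of highest r. Members and lists (also the 8 cell type lists: CD8 T, NK, macrophages and monocytes, neutrophils, dendritic, B, tumour epithelial and stromal) were chosen with earlier results of these data known. The 2 WT groups against each other called all 5 genes of the CD8 list and 3 of 5 of the NK list. Over all genes, 0.437% were called lower in NK and 0.339% higher.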

Additional observations from a re-analysis of the deposited data

How the results depend on the processing

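The direction of Ifi209, Ifi206 and Ifi214 over both cell types was negative in all 17 alternatives run for each, and Ifi209 was called in 16 of them, Ifi206 in 9 and Ifi214 in 9. DESeq2 size factors in edgeR and edgeR without the robust option changed no call of a member. The DESeq2 Wald test called 3 members in NK KO against WT, 1 in NK KE, 1 in NK KO against KE, 4 in CD8 KO, 6 in CD8 KE, 4 in NK mutants, 7 in CD8 mutants, 6 over both cell types and 1 between WT NK and CD8, and over the 11 comparisons it called 157 to 827 of all genes where edgeR called 0 to 103. Without the low-count filter, in the same order down to both cell types, edgeR called 2, 1, 1, 3, 3, 4, 6 and 6 members, beside 0.823%, 1.08%, 0.405%, 0.523%, 0.78%, 1.58%, 0.882% and 1.7% of all genes. With the CD8 libraries fitted alone, 0 members and 0 of all 12669 genes tested were called in CD8 mutants against WT. The cause of these shifts was not tested.

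Replicate numbers in the titles are shared between groups, but samples with the same number did not deviate together, with r between -0.02 and 0.04 over 15 pairs of groups. With the replicate block 2 members (Ifi206 and Ifi209) were called in CD8 mutants against WT and no other call of a member changed. Under this block the uncalled KO minus KE value in NK turned sign for Ifi207 (-0.19) and Ifi208 (-0.094).

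Leaving out 1 library at a time, the number of members called ranged from 0 to 1 in CD8 KE against WT, from 0 to 1 in CD8 KO against KE, from 0 to 1 in CD8 KO against WT and in NK mutants, from 0 to 2 in CD8 mutants and from 0 to 3 over both cell types. Over all genes the calls in the same fits ranged from 0 to 8, 0 to 1, 1 to 13, 0 to 25 (NK mutants), 4 to 32 and 12 to 77. In CD8 KE and in CD8 KO against KE the call came without CD8 KE replicate 1 and was Ifi213, and in CD8 KO against WT and in NK mutants the same gene was called without either CD8 KE library, which these comparisons use only for the shared spread. The median log2 fold change of the members in CD8 KE ranged from -2.36 to -1.23. The lone library left in a group was taken to vary like the other groups. Values that turned sign in at least 1 of these fits were all uncalled in the full fit. In NK KO against WT they ranged from -0.49 to 0.18 for Ifi203 and from -0.049 to 0.26 for Aim2. In NK KE the ranges were -0.44 to 0.47 for Ifi203 and -0.17 to 0.44 for Aim2. For both NK mutants they were -0.28 to 0.18 for Ifi203 and -0.029 to 0.28 for Aim2. In NK KO against KE they were -0.58 to 0.32 for Ifi203, -9.57 to 6.84 for Ifi207, -0.63 to 0.86 for Ifi208, -0.052 to 1.78 for Ifi214 and -0.33 to 0.28 for Aim2. For Ifi204 they were -7.20 to 4.31 in CD8 KO, -8.29 to 0.10 in CD8 KE, -7.25 to 2.20 in CD8 mutants and -9.34 to 0.11 for the difference between cell types. For Ifi208 they were -0.64 to 0.86 in CD8 KE and -0.053 to 1.45 in CD8 mutants. In CD8 KO against KE they were -6.42 to 0.11 for Ifi207, -0.17 to 0.79 for Ifi209, -0.19 to 3.98 for Ifi213 and -0.18 to 0.72 for Mndal. For the difference between cell types they were -2.80 to 5.08 for Ifi207 and -0.013 to 2.05 for Ifi213, and between WT NK and CD8 -0.47 to 0.13 for Ifi209.

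A gene at or near 0 counts in 1 of 2 libraries of a group, such as Ifi204 or Ifi207, gives fold changes that the test cannot place. An alternative with positions unique in the genome as length was not run; transcript words served instead, chosen after seeing the data.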
